A study of Homo sapiens with 4 samples.

Results

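The genes described here are 7 human microRNA host genes, that is, genes whose transcripts carry microRNA hairpins: MIR17HG, VMP1, MIR22HG, MIR31HG, MIR210HG, MIR100HG and DLEU2. A BRD8 peak was assigned to a host gene when its summit lay inside the gene or within 1 kb of either end. The 7 genes are among 58554 annotated genes on chromosomes 1 to 22 and X, and they took 89 of 22303 HCT116 peaks and 18 of 12874 SW480 peaks. The members were chosen partly by their peaks and folds in these same libraries, and MIR17HG leads them because it held the region of highest fold in the HCT116 list. Peak counts and folds of the members are therefore given as a description.

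A microRNA is a short RNA cut from a hairpin by the nuclease DROSHA in the nucleus and by DICER1 in the cytoplasm. Loaded into an Argonaute protein, it pairs with messenger RNAs mainly through its seed, the bases near its 5′ end, and lowers their translation and stability, so microRNAs that share a seed share many targets. MIR17HG makes the transcript of the cluster from miR-17 to miR-92a, which is often overexpressed in colorectal and other cancers and is induced by the transcription factor MYC. BRD8 is a bromodomain subunit of the TIP60/NuA4 complex, which acetylates histones at active genes.

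The series profiled BRD8 by chromatin immunoprecipitation and sequencing (ChIP-seq) in HCT116 and SW480, established human colorectal cancer cell lines, with 1 BRD8 library and 1 input library per line. In each line, cells were fixed for 10 min in 1% formaldehyde, chromatin was cut with micrococcal nuclease, and a polyclonal antibody to BRD8 (2 µg) pulled down the bound fragments. Each library used 1 ng of DNA, and both ends were read over 150 bp. No genetic change or treatment separates the groups beyond the line itself, and the inputs' own signal was not analysed here.

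With 1 BRD8 library per line, no difference between HCT116 and SW480 has a replicate check, and none was tested. Fold and q are the authors' own values for each peak. Fold is (pileup + 1) / (background + 1) at the summit, and its level depends on the depth and input of the library. The median fold was 3.70 in HCT116 and 3.34 in SW480, the median region width 596 bp and 394 bp, and the median summit pileup 24 and 26 fragments. Both lists end at a q of 0.05, and a gene without a listed peak is not shown to lack BRD8. Peaks also lay at 5 of 7 epithelial and intestinal marker genes in HCT116 (EPCAM, KRT8, KRT18, KRT19 and CDX2). In SW480 they lay at 1 of 7 (KRT8), and CDH1 and VIL1 had none in either line. Of all protein-coding genes, 52.6% had a peak in HCT116 and 29.9% in SW480. With so few markers, their counts are a description only. Of the markers of other cell types, PTPRC and PECAM1 had no peak, and COL1A1 had 2 peaks in HCT116 and 0 in SW480. These are BRD8 sites and do not measure expression.

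The mature microRNAs made from the host genes are shown first because the seed, bases 2 to 8 in capitals, decides which of them belong together. Sequences are from RefSeq on GRCh38.p14, written 5′ to 3′. The MIR17HG transcript holds 6 hairpins on the + strand of chromosome 13, from miR-17-5p at chr13:91350618-91350640 to miR-92a-3p at chr13:91351361-91351382. In this cluster miR-17-5p and miR-20a-5p have the same seed, miR-19a-3p and miR-19b-3p have another, and miR-18a-5p and miR-92a-3p each have their own.
hsa-miR-17-5p: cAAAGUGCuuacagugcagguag
hsa-miR-20a-5p: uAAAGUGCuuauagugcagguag
hsa-miR-18a-5p: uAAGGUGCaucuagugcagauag
hsa-miR-19a-3p: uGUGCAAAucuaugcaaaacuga
hsa-miR-19b-3p: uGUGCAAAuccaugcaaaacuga
hsa-miR-92a-3p: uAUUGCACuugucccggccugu

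The other host genes yield 9 further mature microRNAs of interest, and only miR-15a-5p and miR-16-5p among them share a seed. They lie at chr17:59841273-59841294 on the + strand (miR-21-5p, in VMP1) and, on the − strand, at chr17:1713914-1713935 (miR-22-3p), chr9:21512158-21512178 (miR-31-5p), chr11:568112-568133 (miR-210-3p), chr11:122152275-122152296 (miR-100-5p), chr11:122146568-122146589 (let-7a-5p), chr11:122099809-122099830 (miR-125b-5p), chr13:50049167-50049188 (miR-15a-5p) and chr13:50049027-50049048 (miR-16-5p). In all, the 15 mature sequences printed here have 12 different seeds.
hsa-miR-21-5p: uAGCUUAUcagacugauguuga
hsa-miR-22-3p: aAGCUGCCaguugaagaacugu
hsa-miR-31-5p: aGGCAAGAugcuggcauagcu
hsa-miR-210-3p: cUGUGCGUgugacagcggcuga
hsa-miR-100-5p: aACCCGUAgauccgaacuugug
hsa-let-7a-5p: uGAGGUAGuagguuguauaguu
hsa-miR-125b-5p: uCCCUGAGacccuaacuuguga
hsa-miR-15a-5p: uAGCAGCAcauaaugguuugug
hsa-miR-16-5p: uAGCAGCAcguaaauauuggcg

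Of the 13 RefSeq promoter windows of the 7 genes (250 bases before to 50 after a start), 5 are printed because all their bases lay in an HCT116 BRD8 region. They belong to MIR17HG (chr13:91347437-91347736, + strand), to VMP1 (chr17:59707404-59707703, + strand), to the inner start of DLEU2 (chr13:50081992-50082291, − strand), to its outer start (chr13:50125492-50125791, − strand) and to the MIR100HG start at which its run of HCT116 peaks ended (chr11:122105567-122105866, − strand). Capitals mark matches, on either strand, to any of the 10 short motifs searched. The E-box was searched as CACGTG, and the core of the hypoxia response element, which lies within it, as ACGTG. The GC box was searched as GGGCGG, and the box of the CCAAT-binding factor NF-Y as CCAAT. The TATA box was taken as TATAAA and the site of AP-1 as TGANTCA. Sites of ETS factors were taken as CCGGAAGT, the cyclic AMP response element as TGACGTCA, and those of E2F factors as TTTGGCGC or TTTCCCGC.
MIR17HG: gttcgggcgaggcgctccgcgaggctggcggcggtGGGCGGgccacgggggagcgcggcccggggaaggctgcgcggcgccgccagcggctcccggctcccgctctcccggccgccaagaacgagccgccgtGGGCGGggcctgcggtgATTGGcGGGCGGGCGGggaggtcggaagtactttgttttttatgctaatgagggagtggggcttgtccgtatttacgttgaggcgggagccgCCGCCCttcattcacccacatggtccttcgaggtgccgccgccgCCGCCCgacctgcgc
VMP1: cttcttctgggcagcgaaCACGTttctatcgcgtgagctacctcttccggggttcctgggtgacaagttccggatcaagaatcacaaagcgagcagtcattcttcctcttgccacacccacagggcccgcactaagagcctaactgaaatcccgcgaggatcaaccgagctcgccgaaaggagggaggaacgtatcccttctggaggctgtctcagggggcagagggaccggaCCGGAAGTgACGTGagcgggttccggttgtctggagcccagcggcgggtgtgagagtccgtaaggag
DLEU2 inner start: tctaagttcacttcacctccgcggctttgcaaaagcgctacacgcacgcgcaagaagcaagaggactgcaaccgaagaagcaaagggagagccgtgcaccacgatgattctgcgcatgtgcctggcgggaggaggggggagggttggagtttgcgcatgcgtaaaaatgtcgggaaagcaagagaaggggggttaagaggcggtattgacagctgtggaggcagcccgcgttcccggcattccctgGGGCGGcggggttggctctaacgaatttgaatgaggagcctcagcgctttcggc
DLEU2 outer start: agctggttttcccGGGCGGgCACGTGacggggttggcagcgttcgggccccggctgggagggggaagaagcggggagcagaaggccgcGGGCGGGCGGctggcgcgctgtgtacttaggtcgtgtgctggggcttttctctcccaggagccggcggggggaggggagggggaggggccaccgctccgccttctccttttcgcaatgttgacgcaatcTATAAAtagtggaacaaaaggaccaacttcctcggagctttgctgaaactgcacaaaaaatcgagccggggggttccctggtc
MIR100HG inner start: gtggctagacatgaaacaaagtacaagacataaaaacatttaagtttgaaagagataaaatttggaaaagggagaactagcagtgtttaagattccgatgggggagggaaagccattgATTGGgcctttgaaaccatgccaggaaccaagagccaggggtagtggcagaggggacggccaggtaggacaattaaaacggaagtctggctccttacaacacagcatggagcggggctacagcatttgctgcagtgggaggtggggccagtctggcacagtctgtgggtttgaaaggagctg

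The MIR17HG window held 6 matches to GGGCGG, 2 of which overlap, and 1 to CCAAT. The VMP1 window held 1 match to CCGGAAGT and 2 to ACGTG, the DLEU2 inner window 1 to GGGCGG, and the MIR100HG inner window 1 to CCAAT. The DLEU2 outer window held 3 matches to GGGCGG, 2 of which overlap, 1 to TATAAA and 1 to CACGTG, which reads as ACGTG on both strands. It was the only window of the 13 with a match to CACGTG. Among 34943 promoter windows of the same length, GGGCGG was present in 44.9%, CCAAT in 34.6%, ACGTG in 21.4% and TATAAA in 11.6%. TGANTCA was present in 7.72%, CACGTG in 7.23%, CCGGAAGT in 4.11%, TGACGTCA in 1.84%, TTTCCCGC in 1.62% and TTTGGCGC in 0.650%. Searched on the given strand alone, CCAAT was present in 19.6%, TATAAA in 7.35%, CCGGAAGT in 2.26%, TTTCCCGC in 0.859% and TTTGGCGC in 0.392%. A match describes the letters of the window and does not show that a factor binds it.
In base composition the windows ran from 73.0% G and C with 42 CpG dinucleotides at MIR17HG, through 64.0% with 24 at the DLEU2 outer start, 59.3% with 22 at VMP1 and 58.7% with 23 at the DLEU2 inner start, to 49.0% with 4 at the MIR100HG inner start. The median of all windows was 58.7% G and C and 14 CpG.
Of the windows not printed, that of MIR31HG had 104 of its 300 bases in an HCT116 region. In SW480 the bases in a region were 300 of the VMP1 window, 42 of the DLEU2 inner window and 0 of the other 3 printed windows.

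In HCT116, 6 of the 7 host genes had a BRD8 peak, beside 24.5% of all annotated genes. In SW480, 5 of the 7 had one, beside 14.1% of all annotated genes. Gene length bears on these shares: among genes of 100 kb or more they were 50.7% in HCT116 and 36.2% in SW480, and among genes under 10 kb 12.5% and 6.18%. Among long noncoding RNA genes they were 17.6% in HCT116 and 10.9% in SW480, and among those of 100 kb or more 28.2% and 23.6%. VMP1, MIR31HG, MIR100HG and DLEU2 are over 100 kb long, while MIR17HG, MIR22HG and MIR210HG are under 10 kb. MIR210HG had no peak in either line, and MIR31HG had peaks in HCT116 alone.

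**Figure D1:**
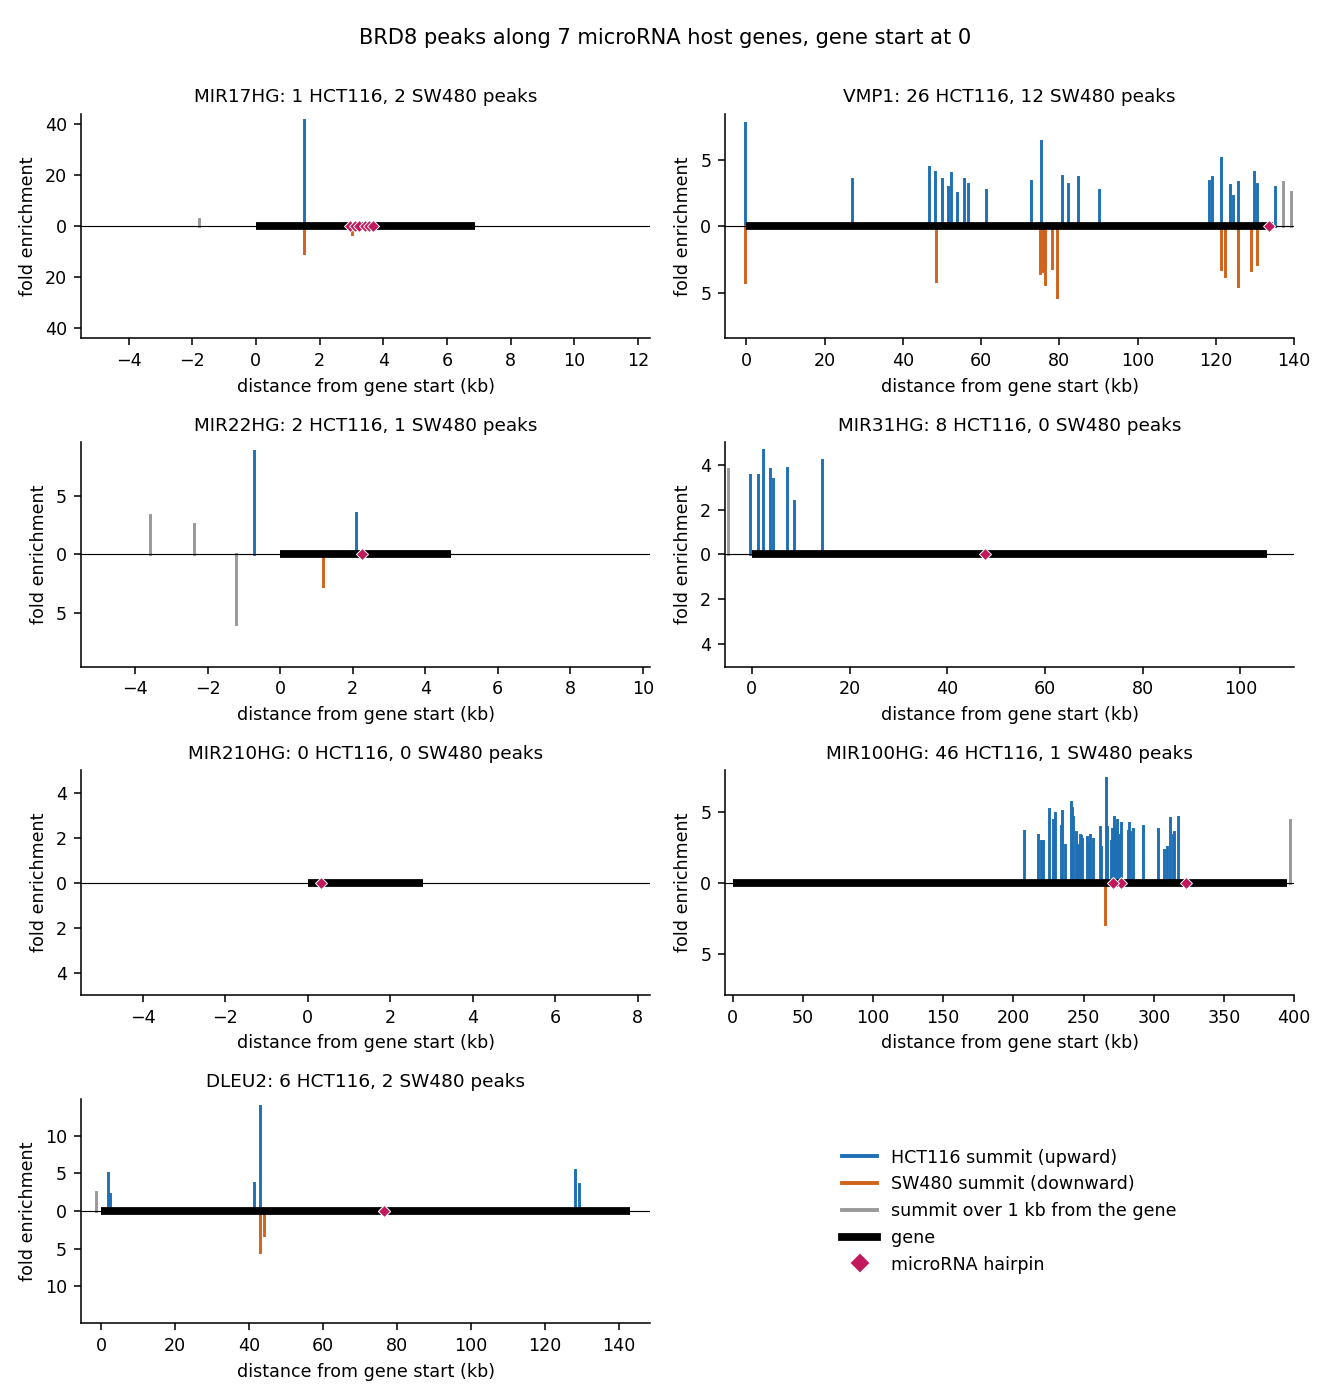
Fold enrichment of every BRD8 summit along the 7 host genes, plotted by distance from the gene start in kb, with HCT116 summits drawn upward and SW480 summits downward. Black bars are genes, diamonds are microRNA hairpins, and grey lines are summits over 1 kb from the gene. MIR100HG had 46 HCT116 and 1 SW480 peaks, VMP1 26 and 12, MIR31HG 8 and 0, DLEU2 6 and 2, MIR22HG 2 and 1, MIR17HG 1 and 2, and MIR210HG 0 in each line.

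MIR17HG, a long noncoding RNA gene on the + strand of chromosome 13 (91347687 to 91354577, GRCh38), held the strongest BRD8 site of the set in both lines. In HCT116 it had 1 region of 5743 bp, from 91346578 to 91352320, with a fold of 41.3. That fold ranked 1 of the whole HCT116 list, and its −log10 q of 248 ranked 3. In SW480 it had 2 regions, of 1854 bp (91348395 to 91350248, fold 10.5, −log10 q 58.1) and of 339 bp (91350522 to 91350860, fold 3.15, −log10 q 2.30). The first of these ranked 33 by fold in the SW480 list, and the other ranked 7444.

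The main summits of the lines lay 20 bp apart at MIR17HG. The HCT116 summit was at 91349207, 1520 bp downstream of the gene start, and the SW480 summit at 91349187, 1500 bp downstream. The shared site therefore lay between the annotated start and the microRNA hairpins, the nearest of which, MIR17, began 1398 bp past the HCT116 summit. The summit pileup was 195 fragments in HCT116 (95% exact Poisson interval 169 to 224) and 91 in SW480 (73.3 to 112). The local background there was 3.75 fragments in HCT116, the lowest level in that list, and 7.78 in SW480, where the lowest level was 4.09. The fold ratio of 3.94 between HCT116 and SW480 thus came with a pileup ratio of 2.14 and a background ratio of 0.481. These intervals cover counting error only, since amplified reads without molecular identifiers are not independent molecules.

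The HCT116 region at MIR17HG covered all 6 hairpins, MIR17, MIR18A, MIR19A, MIR20A, MIR19B1 and MIR92A1, and 67.2% of the gene. The SW480 regions covered 31.8% of the gene. The smaller SW480 region had its summit 7 bp from the MIR17 hairpin and covered MIR17 and MIR18A, but none of the other 4. Its pileup was 15 fragments (8.40 to 24.7), over a background of 4.09, so it was a weak site beside the main one. Outside the gene, HCT116 had a further summit 1802 bp away with a fold of 2.95, and the nearest SW480 summit was 4698590 bp away.

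**Figure D2:**
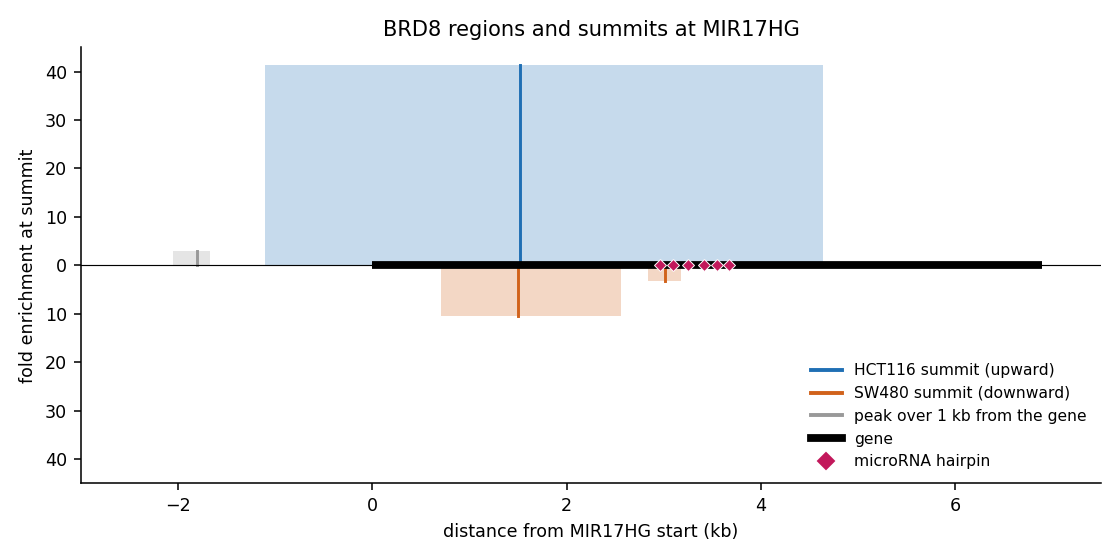
BRD8 regions (shaded) and summits (lines) at MIR17HG, with fold enrichment at the summit on the vertical axis, HCT116 upward and SW480 downward, and distance from the gene start in kb on the horizontal axis. The main summits lie 1520 bp (HCT116, fold 41.3) and 1500 bp (SW480, fold 10.5) past the start, and the smaller SW480 region (fold 3.15) lies on the first hairpins.

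By its pair of highest folds, MIR17HG was most like ZNF598, a ubiquitin ligase gene that acts on stalled ribosomes, with folds of 28.1 in HCT116 and 9.20 in SW480. LOC124903626, a noncoding gene beside ZNF598, had the same pair of values from the same peaks. RBM3, which encodes a cold-inducible RNA-binding protein, came next with 27.6 and 12.4. Likeness here is the distance between the pairs of log2 folds, 0.59 for ZNF598 and LOC124903626 and 0.63 for RBM3, over 2 libraries and 6999 genes with a peak in both lines.

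VMP1, a protein-coding gene on the + strand of chromosome 17 (59707654 to 59842255) whose product is a membrane protein needed for autophagy, contains MIR21 near its 3′ end. miR-21-5p is an abundant microRNA in many tumours, with the messenger RNA of the translation inhibitor PDCD4 among its known targets. VMP1 had 26 peaks in HCT116 and 12 in SW480, ranking 19 and 48 among all genes by number of peaks. Folds ran from 2.26 to 7.79 with a median of 3.47 in HCT116, and from 2.84 to 5.31 with a median of 3.64 in SW480.

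The highest HCT116 fold at VMP1, 7.79, lay 349 bp upstream of its start, inside PTRH2 and 125 bp from the start of that gene. PTRH2 encodes a mitochondrial peptidyl-tRNA hydrolase and is transcribed in the other direction. SW480 had a summit 46 bp away from it, 395 bp upstream of VMP1, with a fold of 4.17. Pileup there was 123 fragments in HCT116 (102 to 147) and 50 in SW480 (37.1 to 65.9), over backgrounds of 14.9 and 11.2. Because PTRH2 and VMP1 start so near each other, this site cannot be assigned to either gene.

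Along VMP1 the peaks fell into separate stretches, taking summits up to 15 kb apart as one stretch. In HCT116, 15 peaks lay between 46617 and 90157 bp from the start with a highest fold of 6.38, and 9 lay between 118389 and 135248 bp, the last of them beyond the end of the gene, with a highest fold of 5.16. In SW480, 5 peaks lay between 75063 and 79484 bp with a highest fold of 5.31, and 5 lay between 121322 and 130641 bp with a highest fold of 4.52. The second stretch of each line was the one next to MIR21. All 5 SW480 peaks of the middle stretch overlapped the same HCT116 region, 6027 bp wide with its summit at 59782847 and a fold of 6.38.

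Near MIR21 the peaks were weak in both lines. An HCT116 region from 59838023 to 59841318 touched the MIR21 hairpin without covering it, and its summit, with a fold of 3.17, lay 3025 bp from the hairpin. The SW480 summit 54 bp away from it, with a fold of 2.84, lay 2971 bp from the hairpin, and its region ended before it. HCT116 also had a summit 1565 bp past the hairpin, 647 bp beyond the end of VMP1, with a fold of 2.95. In both lines the sites nearest MIR21 were therefore below the highest fold of the gene.

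MIR22HG, on the − strand of chromosome 17 (1711504 to 1716210), carries miR-22 in its transcript. It had 2 peaks in HCT116, with folds of 8.82 and 3.54, and 1 in SW480, with a fold of 2.72. The stronger HCT116 summit lay 718 bp upstream of the gene start, inside WDR81 and 405 bp from the start of that gene, which is transcribed the other way and encodes a protein of endosome and autophagy traffic. SW480 had a summit with a fold of 5.92 on the same side, 1226 bp beyond MIR22HG and so outside the limit of 1 kb, although the HCT116 region there overlapped its region. The weaker HCT116 summit was 144 bp from the MIR22 hairpin, with a pileup of 33 fragments (22.7 to 46.3). The SW480 summit was 1047 bp from the hairpin, with 44 fragments (32.0 to 59.1) over a background of 15.6, against 8.61 in HCT116. The hairpin itself was in no region of either line.

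The limit of 1 kb decided few of the assignments. Just inside it were the HCT116 summits 647 bp beyond VMP1 and 718 bp beyond MIR22HG, and just outside it were the SW480 summit 1226 bp beyond MIR22HG and an HCT116 summit 1310 bp beyond DLEU2 with a fold of 2.55.

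MIR210HG, on the − strand of chromosome 11 (565657 to 568457), is the host of miR-210, the microRNA best known for its induction in hypoxia. No BRD8 summit lay in it or within 1 kb of it in HCT116 or SW480. The nearest HCT116 summit was 5219 bp from the gene with a fold of 3.19, and the nearest SW480 summit was 28452 bp away with a fold of 2.58. Within 100 kb of its ends there were 9 HCT116 summits and 3 SW480 summits. Its promoter window held 1 match to ACGTG and no match to CACGTG, and 80.0% of its bases were G or C.

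MIR31HG, on the − strand of chromosome 9 (21454268 to 21559798), carries miR-31, which is raised in many colorectal tumours. It had 8 peaks in HCT116 and 0 in SW480. The HCT116 folds had a median of 3.67 and a highest value of 4.64, and the pileups ran from 15 to 26 fragments. All 8 summits lay between 345 bp upstream of the start and 14411 bp downstream of it, and the nearest to MIR31 was still 33202 bp from the hairpin. The first 14411 bp of the gene therefore held every HCT116 summit inside it. The flanks of 100 kb held a further 17 HCT116 summits and 0 SW480 summits, and the nearest SW480 summit was 243329 bp from the gene.

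MIR100HG, on the − strand of chromosome 11 (122028329 to 122422871), is the host of miR-100, let-7a-2 and miR-125b-1, and has 6 annotated starts. let-7a is known as a restrainer of RAS and MYC, and miR-100 and miR-125b are linked to differentiation and to cetuximab resistance in colorectal cancer cells. It had 46 peaks in HCT116 and 1 in SW480. That HCT116 number ranked 4 among all genes, after PCDH7 with 113, NSMCE2 with 56 and PHLDB2 with 47. Among genes of 100 kb or more the median was 1 peak in HCT116 and 0 in SW480.

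The 46 HCT116 summits at MIR100HG formed a run over 110 kb, from 122105882 to 122215435, with no gap over 15 kb and a median spacing of 1724 bp. The run began 207436 bp past the outermost start and ended 316989 bp past it, 266 bp upstream of the inner start at 122105616. Folds ran from 2.33 to 7.39 with a median of 3.64, and pileups from 13 to 39 fragments with a median of 18.5. The run was thus made of many weak peaks, and its lowest −log10 q was the lowest of the whole list. No HCT116 peak lay within 1 kb of the other 5 starts. The summit at 122115515, with a fold of 2.33, also lay inside BLID, a gene nested within MIR100HG.

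The highest HCT116 peak of the run, with its summit at 122157014 and a fold of 7.39, had a pileup of 39 fragments and a −log10 q of 20.3. The only SW480 peak, with its summit at 122157594, overlapped that region, and had a fold of 2.90, a pileup of 15 fragments (8.40 to 24.7) and a −log10 q of 1.89. Outside the gene, the nearest SW480 summit was 372544 bp away. The lines were therefore far apart in number here. The SW480 summit lay 580 bp from the HCT116 maximum, so the regions overlapped there but the summits did not coincide.

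**Figure D3:**
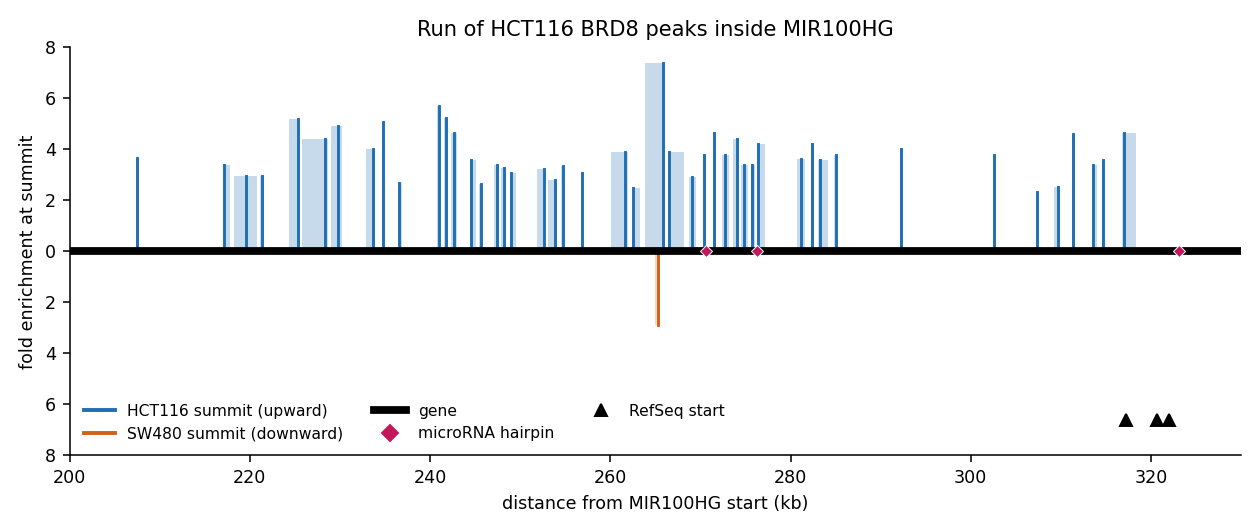
The run of HCT116 BRD8 peaks inside MIR100HG, by distance from its outermost start in kb, with regions shaded, summits as lines and fold enrichment on the vertical axis (HCT116 upward, SW480 downward). Diamonds are the hairpins of MIR100, MIRLET7A2 and MIR125B1, triangles the inner RefSeq starts. The 46 HCT116 summits span 110 kb, and the 1 SW480 summit sits beside the highest of them.

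MIRLET7A2 and MIR100 lay inside the MIR100HG run. An HCT116 summit with a fold of 4.21 was 56 bp from MIRLET7A2, and its region touched the hairpin. Another, with a fold of 3.79, was 118 bp from MIR100, and its region covered the hairpin. MIR125B1 lay past the end of the run, 6038 bp from the nearest HCT116 summit. MIR10526, a further annotated microRNA of this gene, was 270 bp from the nearest HCT116 summit and 5438 bp from the SW480 summit.

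DLEU2, on the − strand of chromosome 13 (49982549 to 50125541), is the host of miR-15a and miR-16-1, which lower BCL2 and are lost with the 13q14 deletion in chronic lymphocytic leukaemia. It had 6 peaks in HCT116 and 2 in SW480. The strongest HCT116 site, with its summit at 50082599, a fold of 13.96 and rank 123 in its list, lay upstream of the inner DLEU2 start by 558 bp and downstream of the DLEU1 start by 430 bp. The SW480 summit at 50082614 lay 15 bp from it, with a fold of 5.42 and rank 588. The pileups were closer than the folds, with 69 fragments in HCT116 (53.7 to 87.3) and 56 in SW480 (42.3 to 72.7), over backgrounds of 4.02 and 9.51. The intervals of the pileups overlapped. DLEU1, a noncoding gene on the other strand, starts beside the inner DLEU2 start, so the site cannot be assigned to either gene.

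The other SW480 peak at DLEU2 had its summit at 50081518, 523 bp downstream of the inner start, with a fold of 3.20, and it fell within the same HCT116 region of 3998 bp. The other HCT116 peaks had folds from 2.33 to 5.48. The highest of these lay 278 bp inside TRIM13, a ubiquitin ligase gene, and another lay 1811 bp downstream of the outer DLEU2 start with a fold of 5.05. The hairpins of MIR15A and MIR16-1 lay 33398 and 33538 bp from the nearest HCT116 summit, and 32317 and 32457 bp from the nearest SW480 summit. MIR3613, a further annotated microRNA in DLEU2, was 137 bp from an HCT116 summit with a fold of 3.53 and 60227 bp from the nearest SW480 summit.

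Over the 15 hairpins of the host genes, the distance to the nearest BRD8 summit had a median of 1858 bp in HCT116 and 2971 bp in SW480. Over all 1911 annotated microRNA genes the medians were 48508 bp and 100564 bp. Because the host genes were chosen partly by their peaks, short distances come in part from the choice. These distances, and the counts of hairpins that follow, are a description only. A summit lay within 1 kb of 3 of the 15 hairpins in HCT116, beside 8.9% of all microRNA genes (95% Wilson interval 7.70 to 10.3), and of 6 of the 15 in SW480, beside 4.03% (3.24 to 5.01). Within 5 kb the counts were 10 in HCT116, beside 18.8%, and 8 in SW480, beside 9.42%. Within 10 kb they were 12 in HCT116, beside 27.1%, and 9 in SW480, beside 14.7%. Hairpins of 1 cluster share a site: all 6 of the SW480 hairpins within 1 kb belong to MIR17HG, and the 3 in HCT116 are MIR22, MIRLET7A2 and MIR100.

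A region touched 9 of the 15 hairpins in HCT116, beside 6.96% of all microRNA genes, and 2 in SW480, beside 1.83%. It covered 7 hairpins whole in HCT116, beside 6.02%, and 2 in SW480, beside 1.2%. These 9 HCT116 hairpins came from 4 regions and the 2 SW480 hairpins from 1 region. HCT116 regions were also wider, with a median of 654 bp at the host genes against 466 bp in SW480.

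**Figure D4:**
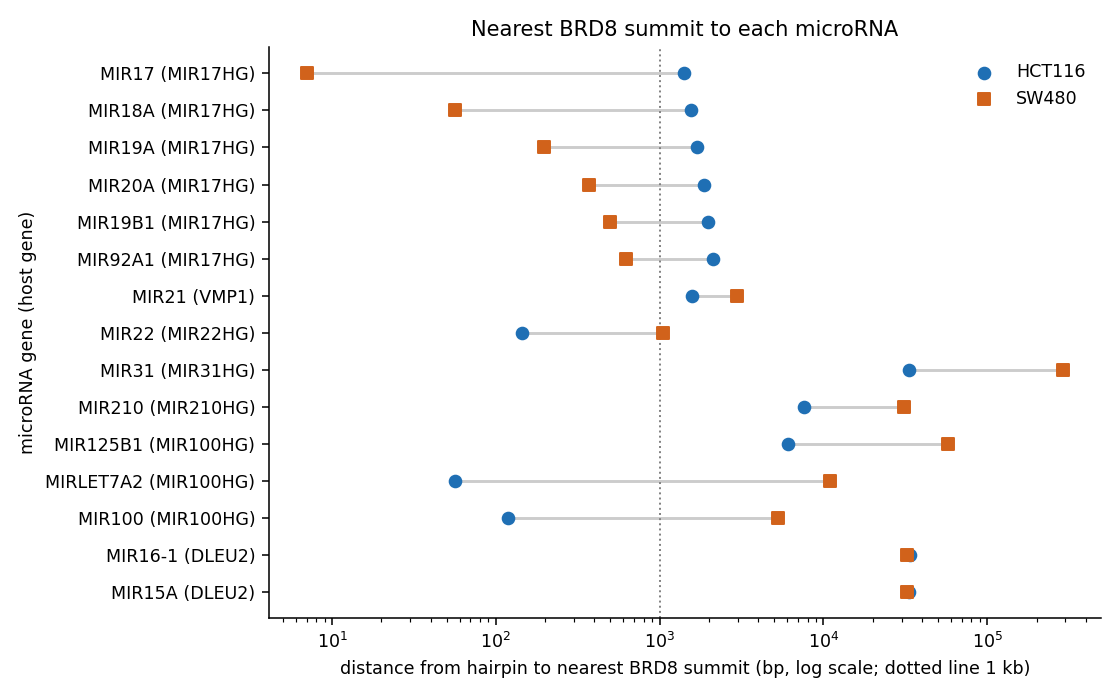
Distance in bp, on a log scale, from each of the 15 microRNA hairpins to the nearest BRD8 summit in HCT116 (circles) and SW480 (squares), with the host gene in brackets and a dotted line at 1 kb. The MIR17HG hairpins lie nearer a summit in SW480 (7 to 619 bp) than in HCT116 (1398 to 2107 bp), and MIR22, MIRLET7A2 and MIR100 lie nearer one in HCT116.

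Of the 89 HCT116 peaks at the host genes, 12 overlapped an SW480 region by at least 1 bp, a share of 13.5% beside 24.2% of the whole HCT116 list. Of the 18 SW480 peaks, 17 overlapped an HCT116 region, a share of 94.4% beside 49.1% of the whole SW480 list. Of these 17, 5 fell in the same 6027 bp HCT116 region of VMP1. When at least 50% of each region had to overlap, 2 of the 89 HCT116 peaks and 1 of the 18 SW480 peaks did. Without MIR100HG, 11 of 43 HCT116 peaks (25.6%) and 16 of 17 SW480 peaks (94.1%) overlapped the other line. The SW480 peak without a partner lay in VMP1, 4532 bp from MIR21, with a fold of 3.32.

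At 7 sites the summits of the lines lay within 200 bp of each other: 1 in MIR17HG, 5 in VMP1 and 1 in DLEU2. The ratio of HCT116 to SW480 fold at these sites had a median of 1.80 and ran from 0.734 to 3.94, and the pileup ratio had a median of 2.14 and ran from 0.909 to 2.47. Fold was higher in HCT116 at 6 of the 7 sites. The exception was a site in VMP1 7964 bp from MIR21, with a fold of 3.32 in HCT116 and 4.52 in SW480 and pileups of 20 fragments (12.2 to 30.9) and 22 fragments (13.8 to 33.3). The pileup intervals of the lines did not overlap at MIR17HG or at the shared PTRH2 and VMP1 start. They also did not overlap at the VMP1 site 75193 bp from its start or at the VMP1 site nearest MIR21. At the other 3 sites they overlapped. At the VMP1 sites without overlap, in that order, background was also higher in HCT116: 14.9 against 11.2, 5.74 against 4.09 and 13.2 against 6.05. At MIR17HG it was lower in HCT116. The fold ratio at the site nearest MIR21 was 1.12. Library depth is unknown and the intervals hold no variation between libraries, so they do not test the lines against each other.

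**Figure D5:**
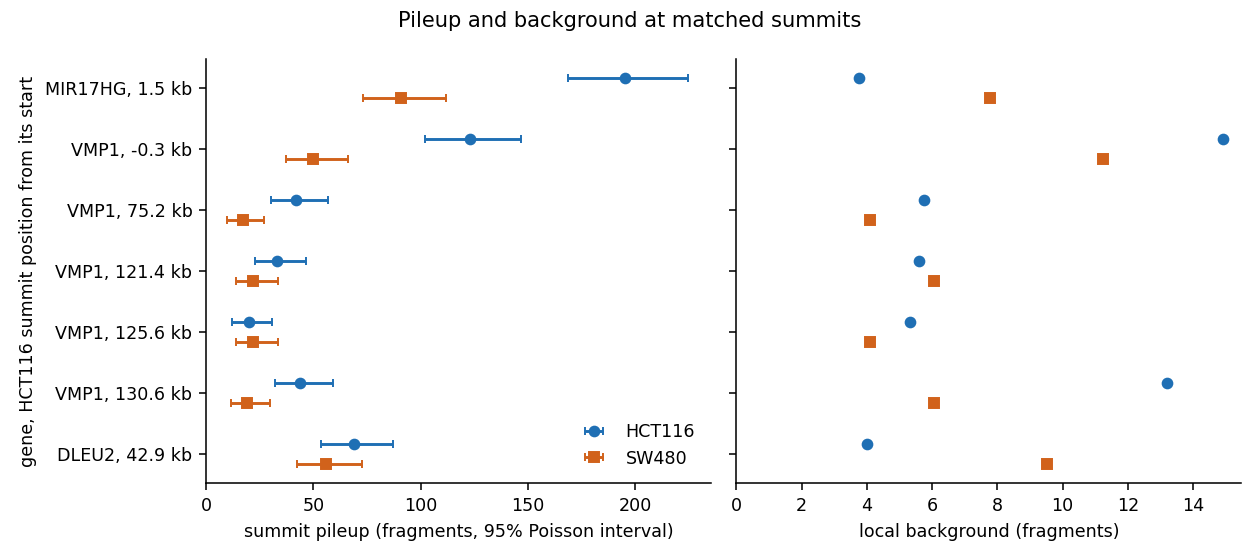
Summit pileup in fragments with its 95% exact Poisson interval (left) and local background in fragments (right) at the 7 sites where HCT116 (circles) and SW480 (squares) summits lie within 200 bp, named by gene and by the HCT116 summit's distance from the gene start. MIR17HG had a pileup of 195 in HCT116 and 91 in SW480 over backgrounds of 3.75 and 7.78. Background was likewise lower in HCT116 at DLEU2 and at the VMP1 site 121364 bp from its start. At the other VMP1 sites it was higher in HCT116.

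Peaks of the host genes near a start are counted next. No share or median fold by distance to a start was computed for the whole list. The counts and medians therefore have no baseline and show no trait of the host genes. Only starts with a RefSeq promoter window were used. HCT116 summits lay 278 and 764 bp from an end of TRIM13. For these the nearest such start was that of KCNRG, 18124 and 19166 bp away, and they counted as away from starts. No such window lay at that end of TRIM13, so the count does not show that they lie away from its start. In HCT116, 5 of the 89 peaks lay within 1 kb of a start with a RefSeq promoter window, with a median fold of 7.79, and the other peaks had a median of 3.58. In SW480, 3 of the 18 did, with a median fold of 4.17, and the other peaks had a median of 3.34. Single peaks did not all follow these medians. In HCT116 the start peak of MIR31HG had a fold of 3.53, and that of MIR100HG, at 4.65, was below the 7.39 inside the gene. In SW480 the start peak of VMP1, at 4.17, was below its inner peak of 5.31. The highest folds with a summit away from starts, 41.3 in HCT116 and 10.5 in SW480, were those of the MIR17HG site. Its HCT116 region nevertheless covered all 300 bases of the MIR17HG promoter window.

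Beyond the 7 genes, the annotation holds 82 other genes named as microRNA host genes (symbols MIR or MIRLET with a number and HG). A BRD8 peak lay at 22 of these in HCT116 and 14 in SW480, 11 of them in both lines, 11 in HCT116 alone and 3 in SW480 alone. These are 26.8% and 17.1% of the 82, near the 24.5% and 14.1% of all annotated genes. Including 5 members with such names, the shares were 29.9% of 87 in HCT116 and 19.5% in SW480. MIRLET7IHG, host of let-7i, had the highest fold in both lines, 15.5 in HCT116 and 5.63 in SW480. In HCT116 it was followed by MIRLET7A1HG with 8.22 and MIR3677HG with 6.74, and in SW480 by MIR181A2HG with 5.44 and MIR3677HG with 5.15.

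Of 22 genes of microRNA processing and silencing, 19 had a peak in HCT116 and 15 in SW480, and all 15 were among the 19. The neighbouring genes AGO1 and AGO3 each had 1 HCT116 peak with the same fold of 3.83, so the same peak may count for both. The shares of all protein-coding genes with a peak were 52.6% in HCT116 and 29.9% in SW480. RAN, the GTPase that drives nuclear export of microRNA precursors, had the highest fold in both lines, 13.5 in HCT116 and 6.33 in SW480. SRRT, which links capped transcripts to microRNA processing, had 11.7 in HCT116 and 3.65 in SW480. DDX5, a helicase that works with DROSHA, had 10.1 and 3.44. TARBP2, the partner of DICER1, had 5.77 in HCT116 and 5.05 in SW480, and NCBP1, of the cap-binding complex, had 7.79 and 5.00. AGO4, LIN28A and LIN28B had no peak in either line.

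MicroRNAs with the seeds of the MIR17HG cluster are also made at other loci. MCM7, a helicase gene of DNA replication that hosts the cluster of MIR106B, MIR93 and MIR25 (chromosome 7, 100092728 to 100101397), had 3 peaks in HCT116 with a highest fold of 11.4, and 1 in SW480 with a fold of 2.66. MIR106B, whose product has the miR-17-5p seed, was 571 bp from the nearest HCT116 summit and 4756 bp from the nearest SW480 summit. On the X chromosome, MIR106A was 202598 bp from the nearest HCT116 summit and 290611 bp from the nearest SW480 summit, and MIR363 was 203424 and 291437 bp away. The fold at the MIR17HG site was above the highest at MCM7 in both lines. MIR17HG was chosen for the highest fold of the HCT116 list, so in HCT116 that order was fixed by the choice. Neither list held a summit close to the X-linked cluster.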

How the data were processed

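BRD8 ChIP-seq peak lists of HCT116 and SW480, 1 per ChIP library and not pooled, were analysed. The submitters' processing notes name Trimmomatic 0.33, Bowtie2 2.4.1, MACS2 and deepTools, with the GRCh38 build. How reads were filtered and whether duplicates were removed is not given in the sources used here. For each peak the authors deposited a fold, the ratio of (pileup + 1) to (background + 1) at its summit. Beside it stand the deposited −log10 p-value, the deposited −log10 q-value and the summit's offset from the region start. Multiplying the −log10 q by 10 and dropping the decimals gave the deposited score for 99.8% of the HCT116 peaks and 99.98% of the SW480 peaks.

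Summit pileup and background were solved from fold and p, scanning to 2999 fragments with a relative tolerance of 0.0001, for 99.996% of the HCT116 peaks and 99.99% of the SW480 peaks. The lists give no read totals, so library depth is unknown. Only chromosomes 1 to 22 and X were used, which left out 9 HCT116 regions and 72 SW480 regions. Gene positions are those of RefSeq on GRCh38.p14, without entries on unplaced or alternate scaffolds. Distance to a start used the RefSeq promoter windows, of 27167 genes. Positions are 1-based.

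The members and lists were chosen with earlier results of these data known. Named were the 7 genes and every microRNA gene in or within 10 kb of them, and, per line, the 3 other host genes and the 3 processing genes of highest fold. The processing genes without a peak, the 3 genes nearest to MIR17HG in their pair of log2 folds, MCM7, MIR106A and MIR363 were named as well. Neighbouring genes at member peaks, the genes with more peaks than MIR100HG, AGO1 and AGO3, and MIR106B, MIR93 and MIR25 were named after their values were seen. Shares have 95% Wilson intervals and pileups 95% exact Poisson intervals. Alternatives covered the q threshold, equal peak numbers, the assignment rule, distance limits, overlap rules, pileup in place of fold, and motif strand. Calculations used Python 3.11.15, pandas 2.3.3, numpy 2.4.6 and SciPy 1.17.1 and were tested on simulated data.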

Additional observations from a re-analysis of the deposited data

How the results depend on the processing

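Alternatives changed several of the counts. The number of HCT116 peaks at the host genes, 89, was 37 at a −log10 q of at least 5, 44 with equal numbers of peaks per line, and 43 without MIR100HG, an alternative chosen after seeing the data. The SW480 number, 18, was 9 at a −log10 q of at least 5. SW480 had a peak at 4 of the 7 host genes instead of 5 at a −log10 q of at least 2 or 5, where the only MIR100HG peak was lost and left no fold to recompute. At a −log10 q of at least 5, SW480 also had peaks at 8.65% of all genes and at 8 of the 82 other host genes, and summits within 1 kb of 45 microRNA genes. Without the margin of 1 kb it had peaks at 8 of the 82. MicroRNA genes with a summit nearby numbered 360 in HCT116 and 180 in SW480 within 5 kb, and 517 and 281 within 10 kb. Peaks that overlapped the other line numbered 2 in HCT116 and 1 in SW480 when 50% of each region had to overlap, and 7 in each when summits had to lie within 200 bp. A highest fold is a deposited value, so a filter on q or peak number cannot change it unless that peak is lost. Of 64 recomputed highest folds, 60 were the same, which is therefore no sign that the folds are robust. The 4 that moved were those of VMP1 (6.38) and MIR22HG (3.54) in HCT116 without the margin, and MIR22HG in SW480 (5.92) with a margin of 5 kb or by region overlap. No paired analysis was possible because each line has 1 BRD8 library, and no library could be left out. No listed peak had a pileup under 12 fragments in HCT116 or 13 in SW480, so weaker sites may be missing from the lists. Whether library depth set these limits was not tested.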

Other observations

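The seeds printed for the host genes recur at 40 other annotated microRNA loci. A BRD8 summit lay within 1 kb of 5 of these in HCT116 and 1 in SW480, beside 8.9% and 4.03% of all microRNA genes. Within 10 kb the counts were 19 in HCT116 and 14 in SW480, beside 27.1% and 14.7%. The loci within 1 kb in HCT116 were MIR106B and MIR93 in MCM7, MIR15B and MIR16-2 in SMC4, and MIR92B. MIR106B and MIR93 shared a summit (fold 3.47), and so did MIR15B and MIR16-2 (fold 2.95). Counts of loci, also within 10 kb, are therefore not counts of separate sites. MIR92B was also the SW480 locus, with a summit 562 bp away in HCT116 (fold 3.25) and 627 bp away in SW480 (fold 4.29). MIR15B, which has the miR-15a-5p seed, was 462 bp from an HCT116 summit with a fold of 2.95 and 3058 bp from an SW480 summit with a fold of 4.04. MIRLET7I, with the let-7a-5p seed, lay in a region of both lines, 1058 bp from the HCT116 summit (fold 15.5) and 1053 bp from the SW480 summit (fold 5.63). These loci were singled out after their values were seen.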
